A study of Mus musculus with 20 samples.

Results

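The genes that encode the proteasome were followed across 20 RNA-seq libraries of mouse quadriceps muscle. Members were all genes named Psma, Psmb, Psmc, Psmd or Psme with a number, in the deposited table of 17415 genes, that reached at least 1 CPM (read counts scaled so that each library adds up to 1e+06) in at least 5 libraries. The name pattern matched 44 genes, and 43 passed. Psme2b, which has the pattern but reached 1 CPM in 3 libraries, was left out. The members were 7 core alpha subunits (Psma1 to Psma7), 7 constitutive core beta subunits (Psmb1 to Psmb7), 3 immunoproteasome subunits (Psmb8, Psmb9 and Psmb10), 6 ATPases (Psmc1 to Psmc6) and 11 non-ATPase subunits (Psmd1 to Psmd4, Psmd6 to Psmd8 and Psmd11 to Psmd14) of the regulatory particle, 3 chaperones that help assemble the base of the regulatory particle (Psmd5, Psmd9 and Psmd10), 4 activators (Psme1 to Psme4) and 2 genes that share only the name (Psmc3ip, which encodes a meiotic recombination protein, and Psme3ip1, which encodes a partner of PSME3).

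The proteasome is the protease that degrades ubiquitin-tagged proteins. Its core particle is a barrel of stacked rings in which outer rings of alpha subunits gate the entrance and inner rings of beta subunits carry the proteolytic sites, encoded by Psmb5, Psmb6 and Psmb7. A regulatory particle of ATPase (Psmc) and non-ATPase (Psmd) subunits binds, deubiquitinates, unfolds and feeds in the substrate, and in skeletal muscle this system is known for the breakdown of myofibrillar proteins during atrophy. Interferons induce alternative catalytic subunits, encoded by Psmb8, Psmb9 and Psmb10, that replace their constitutive counterparts in newly assembled cores, and also induce the PA28 activator encoded by Psme1 and Psme2. The resulting immunoproteasome, which is abundant in cells of the immune system, is known for making peptides for MHC class I.

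All animals were mice, and a single hindlimb underwent anterior cruciate ligament transection (ACLT), a surgical rupture of a knee ligament. Quadriceps were taken 7 days later from the ACLT limb and from a non-injured control limb. The mice received 10 mg/kg of an antibody against GDF8, or myostatin, a secreted brake on muscle growth of the TGF-beta family (GDF8 Ab, REGN647), or of a placebo antibody (PLA Ab, REGN1945), injected under the skin at a frequency of 2 doses a week. This gave 4 groups of 5 libraries, PLA Ab control, PLA Ab ACLT, GDF8 Ab control and GDF8 Ab ACLT. The methods give both sexes, an age of 4 to 5 months and both C57BL/6J and Col1-eGFP mice, the latter carrying green fluorescent protein under a collagen alpha1(I) promoter, and the labels do not say which strain or sex a library came from. In the paper the sequenced quadriceps came from the antibody study that also counted cells with this fluorescent protein. C57BL/6J is named there for a separate, longer dosing study. The control limb belonged to an operated and injected animal, so no group was free of surgery or antibody. The methods make the opposite limb of each operated mouse its control, and a figure legend of the paper gives 5 mice per group. By that design both limbs of a mouse are among the libraries. The labels do not say which libraries share a mouse, and the p-values below treat all 20 as independent.

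The depths read from the steps between values were 15.6 to 24.2 in units of 1e+06 reads per library, and a floor of 3 reads corresponded to 0.124 to 0.192 CPM, for counting error only. All genes were tested together with limma on log2(CPM + 1), and calls were made where p, adjusted by Benjamini-Hochberg over 13502 genes, was under 0.05. The PLA Ab ACLT libraries differed most in scale. When each library was rescaled by the median over genes of its ratio to the average library (median-of-ratios scaling), the PLA Ab ACLT libraries had factors of 0.952, 1.15, 1.01, 1.31 and 1.41, in the order of their numbers, and the other 15 had 0.895 to 1.01. Libraries 4 and 5 of that group stood apart, and the results of comparisons that use this group are given with and without them. In deposited CPM the median log2 fold change of all genes, PLA Ab ACLT against PLA Ab control, was 0.193, and after rescaling it was −0.044. Changes in CPM between these groups are therefore read against those medians. Muscle fibre markers (Acta1, Ckm, Mb, Myh4, Tnnt3 and Ttn) summed to between 78246 and 137831 CPM in each library, so the defining markers of the labelled tissue were present in all.

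In the PLA Ab control limb the constitutive proteasome was expressed throughout its subunits, whereas the immunoproteasome was near the bottom of the family. Divided by the exonic length of 1 reference transcript per gene, the level of core alpha subunits ran from 20.5 CPM per kb (Psma2) to 92.0 CPM per kb (Psma6) with a median of 51.2. The core beta subunits ran from 48.2 (Psmb1) to 183 CPM per kb (Psmb7) with a median of 98.5. Regulatory subunits had medians close to those of the alpha ring, at 60.5 CPM per kb for the ATPases (40.3 for Psmc6 to 97.9 for Psmc3) and 56.8 CPM per kb for the non-ATPases (29.9 for Psmd14 to 99.9 for Psmd8). The immunoproteasome genes Psmb9, Psmb8 and Psmb10 stood at 1.33, 2.17 and 5.61 CPM per kb. Base assembly chaperones were similarly low, from 3.77 (Psmd5) to 5.50 CPM per kb (Psmd10). Of the activators, the PA28 partners Psme1 and Psme2 stood at 19.7 and 17.8 CPM per kb, Psme3, which encodes the nuclear PA28 gamma, at 19.8, and Psme4, which encodes the large activator PA200, at 47.2.

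**Figure D1:**
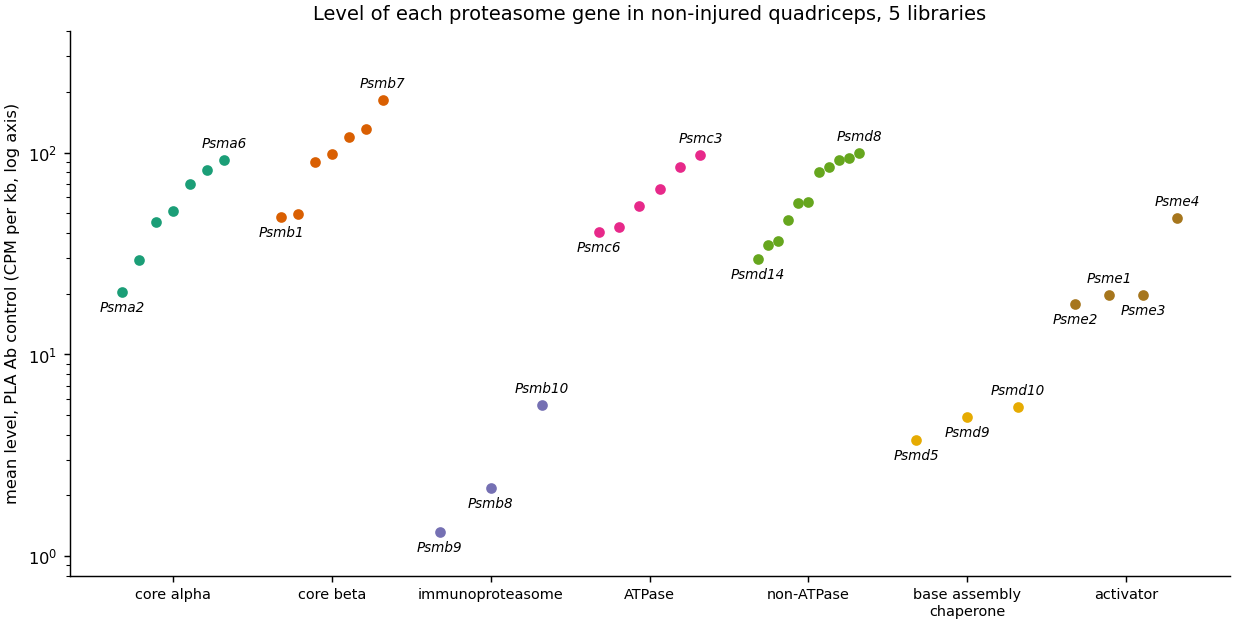
Mean level of each proteasome gene in the 5 PLA Ab control libraries, in CPM per kb of exonic length on a log axis, grouped by subunit class, with 1 point per gene. The immunoproteasome genes (1.33 to 5.61 CPM per kb) and the base assembly chaperones (3.77 to 5.50) lie below every core and regulatory subunit (20.5 to 183).

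The spread of the constitutive subunits between libraries of a group was lowest under GDF8 Ab, as a description with no test. The coefficient of variation of the 31 constitutive core and regulatory subunits had a median of 8.61% in PLA Ab control, 13.2% in PLA Ab ACLT, 5.59% in GDF8 Ab control and 5.38% in GDF8 Ab ACLT. In PLA Ab control the widest were Psmd8, a lid subunit, at 21.6% and Psmb6 at 16.5%, and the narrowest was Psmd3, another lid subunit, at 2.83%. Summed over the 31 genes, the level was 3301 ± 191 CPM (SD, n = 5) in PLA Ab control, 3453 ± 351 in PLA Ab ACLT, 3092 ± 120 in GDF8 Ab control and 3110 ± 104 in GDF8 Ab ACLT. Without libraries 4 and 5 the median coefficient of variation of PLA Ab ACLT was 6.81% in deposited CPM. With median-of-ratios scaling it was 10.97% in all 5 libraries and 13.43% without libraries 4 and 5. The lower spread without those libraries was thus seen in deposited CPM only. In deposited CPM the PLA Ab ACLT sum without them was 3208 ± 119 CPM (SD, n = 3), which was below the PLA Ab control mean. After median-of-ratios scaling the sums of PLA Ab control and ACLT were 3456 ± 201 and 2995 ± 331 CPM (SD, n = 5), so the order of these groups depended on the scaling and on those libraries. As a description over the 20 libraries, which share scaling, deviations of 2 constitutive subunits from their group means correlated with a median r of 0.552 over 465 pairs, and those of an immunoproteasome gene and a constitutive subunit with a median r of 0.298. After median-of-ratios scaling these values were 0.504 and −0.434, so the sign of the second depended on the scaling.

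The promoters of the catalytic subunits and of the immunoproteasome subunits were compared because the 2 sets are known to answer to different transcription factors, NFE2L1 for the constitutive genes and factors such as IRF1 for the interferon-induced genes. RefSeq promoters of the mouse build GRCm38.p6 were found for 37 of 43 members in 41 windows, and the 250 bases before the start were searched on both strands. A gamma activation site, spelled TTCNNNGAA, occurred in 7.02% of 32851 mouse promoters and in 1 of 41 member windows, that of Psmb8. The antioxidant response element, spelled TGACNNNGC, occurred in 10.2% of all promoters and in 5 of 41 member windows, those of Psmb5, Psmb6, Psmc6, Psmd9 and Psmd12. The interferon-stimulated response element, read as a pair of GAAA runs with 2 bases between them, occurred in 2.98% of all and in the windows of Psmb3, Psmd4 and Psmd9, and CCAAT in 33.8% of all and in 15 of 41. In the member windows no match overlapped a match to another spelling, and a match is a description of letters only. The stretches around the match in Psmb8, and before the start of Psmb9 with its CCAAT read on the other strand, both lie within an annotated transcript of the gene. Those of Psmb5 and Psmb6, which their products replace, lie upstream of any. All are written 5′ to 3′ on the strand of the gene with the match in capitals.
Psmb8, GRCm38.p6 chr17:34198088-34198117, plus strand: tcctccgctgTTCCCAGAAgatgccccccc
Psmb9, GRCm38.p6 chr17:34187331-34187360, minus strand: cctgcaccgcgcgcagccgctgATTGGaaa
Psmb5, GRCm38.p6 chr14:54618023-54618245, minus strand: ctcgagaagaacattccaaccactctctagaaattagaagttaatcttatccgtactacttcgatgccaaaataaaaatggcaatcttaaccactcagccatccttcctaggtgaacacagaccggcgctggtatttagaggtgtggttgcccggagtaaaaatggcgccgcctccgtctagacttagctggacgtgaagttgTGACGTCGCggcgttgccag
Psmb6, GRCm38.p6 chr11:70525107-70525356, plus strand: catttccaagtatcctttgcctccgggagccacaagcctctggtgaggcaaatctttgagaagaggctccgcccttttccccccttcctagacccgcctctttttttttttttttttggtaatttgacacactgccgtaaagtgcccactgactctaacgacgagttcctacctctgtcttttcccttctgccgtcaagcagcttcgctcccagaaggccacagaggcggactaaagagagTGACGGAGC
The share of member windows with a match was 12.2% for the antioxidant response element and 2.44% for the gamma activation site, close to and below the shares of all promoters. It was 7.32% for the interferon-stimulated response element, above the 2.98% of all promoters but resting on 3 windows. None of those windows belonged to Psmb8, Psmb9 or Psmb10. The windows of Psmb9 and Psmb10 held no gamma activation site. Psmb7 was not matched to a window.

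The first comparison, ACLT against control limb under PLA Ab, asked how the injured muscle differed at 7 days. The genes of all 3 immunoproteasome subunits rose, and so did the PA28 partners Psme1 and Psme2 and a core alpha subunit, Psma5. Of these 6, Psmb8, Psmb9 and Psme2 kept their call after median-of-ratios scaling, and none kept it without PLA Ab ACLT libraries 4 and 5. In all, 6 of 43 members (14.0%) were called higher and 0 lower, against 28% of all tested genes higher and 1.49% lower, in deposited CPM. The share of members called was thus below that of all genes on this scale. For lower calls this turned after median-of-ratios scaling, where 6.98% of members were called higher, against 18.6% of all genes, and 32.6% lower, against 15.9%. Members were called higher in 3 of 3 immunoproteasome genes, 2 of 4 activators and 1 of 31 constitutive core and regulatory subunits. The groups did not overlap for 3 members, Psmb8, Psmb9 and Psme1, against 10.3% of all genes with every ACLT value higher and 0.459% with every value lower.

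Psmb8, which encodes the beta5i subunit that replaces PSMB5 (chromosome 17, 34416695 to 34420429, plus strand, coordinates of the deposited table, whose build is not settled), read 3.76, 4.04, 3.05, 3.66 and 3.14 CPM in PLA Ab control libraries 1 to 5, 6.02, 7.69, 4.57, 12.3 and 20.7 CPM in PLA Ab ACLT, 3.84, 2.48, 3.85, 4.11 and 5.57 CPM in GDF8 Ab control, and 5.83, 4.54, 7.33, 5.13 and 3.82 CPM in GDF8 Ab ACLT. Every PLA Ab ACLT library was above every PLA Ab control library, and libraries 4 and 5 were the highest. The log2 fold change was 1.14 ± 0.27 (SE, adjusted p = 0.00528). Psmb9 (beta1i, which replaces PSMB6, chromosome 17, 34400961 to 34406739, minus strand) read 1.69, 1.62, 1.20, 2.76 and 1.69 CPM in PLA Ab control libraries 1 to 5, 3.08, 3.54, 3.93, 5.45 and 8.42 CPM in PLA Ab ACLT, 1.99, 0.913, 2.61, 2.61 and 3.76 CPM in GDF8 Ab control, and 2.34, 1.73, 3.95, 2.52 and 2.64 CPM in GDF8 Ab ACLT. Here too the groups under PLA Ab did not overlap, although control library 4 at 2.76 CPM came close to ACLT library 1 at 3.08 CPM, and the fold change was 1.03 ± 0.24 (SE, adjusted p = 0.00532). Psmb10 (beta2i, which replaces PSMB7, chromosome 8, 106662367 to 106665077, minus strand) read 7.87, 7.65, 5.83, 7.25 and 8.21 CPM in PLA Ab control libraries 1 to 5, 7.65, 11.4, 7.35, 14.0 and 21.0 CPM in PLA Ab ACLT, 7.84, 7.43, 6.82, 9.41 and 8.64 CPM in GDF8 Ab control, and 9.89, 6.62, 9.72, 7.83 and 9.11 CPM in GDF8 Ab ACLT. ACLT libraries 1 and 3, at 7.65 and 7.35 CPM, lay within the control range, and the other 3 lay above it. Its fold change was 0.58 ± 0.20 (SE, adjusted p = 0.0379).

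The PA28 activator genes neighbour each other on chromosome 14. Psme1 (PA28 alpha, 55815580 to 55818987, plus strand) read 21.7, 22.9, 19.98, 21.9 and 22.9 CPM in PLA Ab control libraries 1 to 5, 23.1, 33.2, 26.0, 31.9 and 33.8 CPM in PLA Ab ACLT, 28.6, 23.3, 25.6, 25.4 and 27.9 CPM in GDF8 Ab control, and 28.7, 24.8, 28.9, 24.4 and 23.6 CPM in GDF8 Ab ACLT. The lowest PLA Ab ACLT value, 23.1 CPM, exceeded the highest control value, 22.9 CPM, by little, and the fold change was 0.41 ± 0.10 (SE, adjusted p = 0.00674). Psme2 (PA28 beta, 55824898 to 55828571, minus strand) read 17.5, 19.1, 17.4, 15.99 and 15.3 CPM in PLA Ab control libraries 1 to 5, 18.5, 23.1, 20.1, 31.4 and 34.3 CPM in PLA Ab ACLT, 17.5, 18.8, 17.7, 16.1 and 18.3 CPM in GDF8 Ab control, and 20.4, 19.6, 18.9, 18.1 and 18.9 CPM in GDF8 Ab ACLT. ACLT library 1 lay among the controls, and the fold change was 0.51 ± 0.13 (SE, adjusted p = 0.00727). The other activators went without a call. Psme3 read 46.9, 58.5, 49.5, 50.9 and 57.3 CPM in PLA Ab control libraries 1 to 5, 42.6, 52.5, 50.2, 62.6 and 70.7 CPM in PLA Ab ACLT, 54.8, 52.3, 45.0, 48.6 and 49.9 CPM in GDF8 Ab control, and 58.1, 47.8, 45.9, 47.3 and 52.4 CPM in GDF8 Ab ACLT, with groups that overlapped, and changed by 0.06 ± 0.11 (SE, adjusted p = 0.689) on the log2 scale in deposited CPM. Psme4 read 321, 281, 406, 238 and 287 CPM in PLA Ab control libraries 1 to 5, 248, 201, 350.1, 233 and 257 CPM in PLA Ab ACLT, 347, 244, 351, 233 and 238 CPM in GDF8 Ab control, and 282, 251, 293, 224 and 270.3 CPM in GDF8 Ab ACLT. Its spread within a group was wide, the highest library of each group being library 3, and its log2 fold change was −0.25 ± 0.16 (SE, adjusted p = 0.240).

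**Figure D2:**
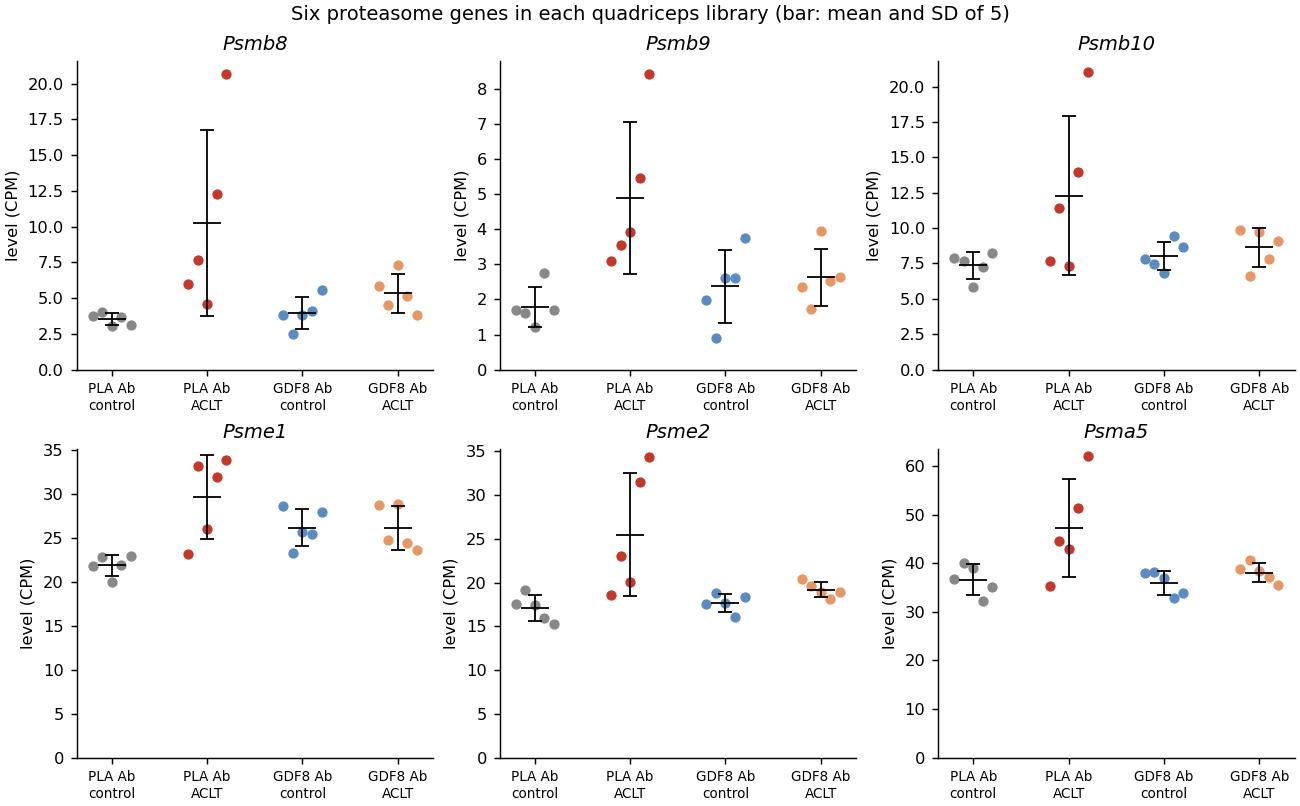
CPM of the 6 genes called higher in PLA Ab ACLT than PLA Ab control (Psmb8, Psmb9, Psmb10, Psme1, Psme2 and Psma5) in each of the 20 libraries, with the mean and SD of each group of 5. Psmb8, Psmb9 and Psme1 do not overlap between the 2 PLA Ab groups, and PLA Ab ACLT libraries 4 and 5 lead for Psmb8, where they read 12.3 and 20.7 CPM. With median-of-ratios scaling Psmb8, Psmb9 and Psme2 stay called.

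The catalytic subunits that the immunoproteasome genes replace did not pass the test in deposited CPM. Psmb5 (beta5) read 101, 126, 100.4, 103 and 107 CPM in PLA Ab control libraries 1 to 5, 105, 117, 103, 137 and 131 CPM in PLA Ab ACLT, 102, 105, 97.7, 102 and 96.4 CPM in GDF8 Ab control, and 113, 109.9, 100.2, 98.4 and 107 CPM in GDF8 Ab ACLT. Control library 2 was far above the other controls, and the fold change was 0.14 ± 0.08 (SE, adjusted p = 0.213). Psmb6 (beta1) read 105, 134, 88.0, 96.7 and 101 CPM in PLA Ab control libraries 1 to 5, 109, 101, 99.5, 118 and 115 CPM in PLA Ab ACLT, 98.9, 108, 89.4, 98.7 and 103 CPM in GDF8 Ab control, and 102, 114, 99.8, 103 and 104 CPM in GDF8 Ab ACLT, and its fold change was 0.06 ± 0.09 (SE, adjusted p = 0.630). Psmb7 (beta2) read 208, 247, 205, 196 and 206 CPM in PLA Ab control libraries 1 to 5, 210.1, 178, 204, 232 and 198 CPM in PLA Ab ACLT, 213, 211, 189.7, 200.4 and 179 CPM in GDF8 Ab control, and 205, 193, 184, 194 and 203 CPM in GDF8 Ab ACLT. The ACLT values lay within or near the control range for all 3 genes, and for Psmb7 the fold change was −0.06 ± 0.08 (SE, adjusted p = 0.613). Among the other constitutive subunits the call was Psma5 (alpha5, chromosome 3, 108164242 to 108187291, plus strand), which read 36.8, 39.96, 39.1, 32.1 and 35.1 CPM in PLA Ab control libraries 1 to 5, 35.4, 44.5, 42.9, 51.4 and 61.9 CPM in PLA Ab ACLT, 38.0, 38.2, 37.0, 32.8 and 33.8 CPM in GDF8 Ab control, and 38.8, 40.6, 38.3, 37.2 and 35.4 CPM in GDF8 Ab ACLT. Library 1 of PLA Ab ACLT fell among the controls, and the fold change was 0.34 ± 0.11 (SE, adjusted p = 0.0260).

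The median log2 fold change was 0.15 over the 7 core alpha subunits, 0.12 over the 7 core beta, 0.08 over the 6 ATPases, 0.02 over the 11 non-ATPases and 0.32 over the 3 base assembly chaperones, beside 1.03 over the 3 immunoproteasome genes and 0.24 over the 4 activators. Only the last 3 medians lay above the 0.193 of all genes. Of the 31 constitutive core and regulatory subunits, 26 had values above 0, with a median of 0.07. That direction turned with the scaling. Under median-of-ratios scaling 1 of the 31 was above 0 and the median was −0.20, where that of all genes was −0.044. There, 3 of 43 members were called higher, against 18.6% of all genes, and 14 lower, against 15.9%. The genes called higher were Psmb8 (0.90, adjusted p = 0.00508), Psmb9 (0.81, adjusted p = 0.00862) and Psme2 (0.25, adjusted p = 0.0194). The genes called lower were 11 constitutive subunits (Psma3, Psma6, Psmb2, Psmb7, Psmc6, Psmd2, Psmd3, Psmd6, Psmd7, Psmd11 and Psmd12), Psme3, Psme4 and Psme3ip1. Within these, Psmb7 was at −0.33, adjusted p = 0.0220, and Psme4 was at −0.52, adjusted p = 0.0418. Psmb10, Psme1 and Psma5 lost their call, at adjusted p of 0.0848, 0.119 and 0.475.

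**Figure D3:**
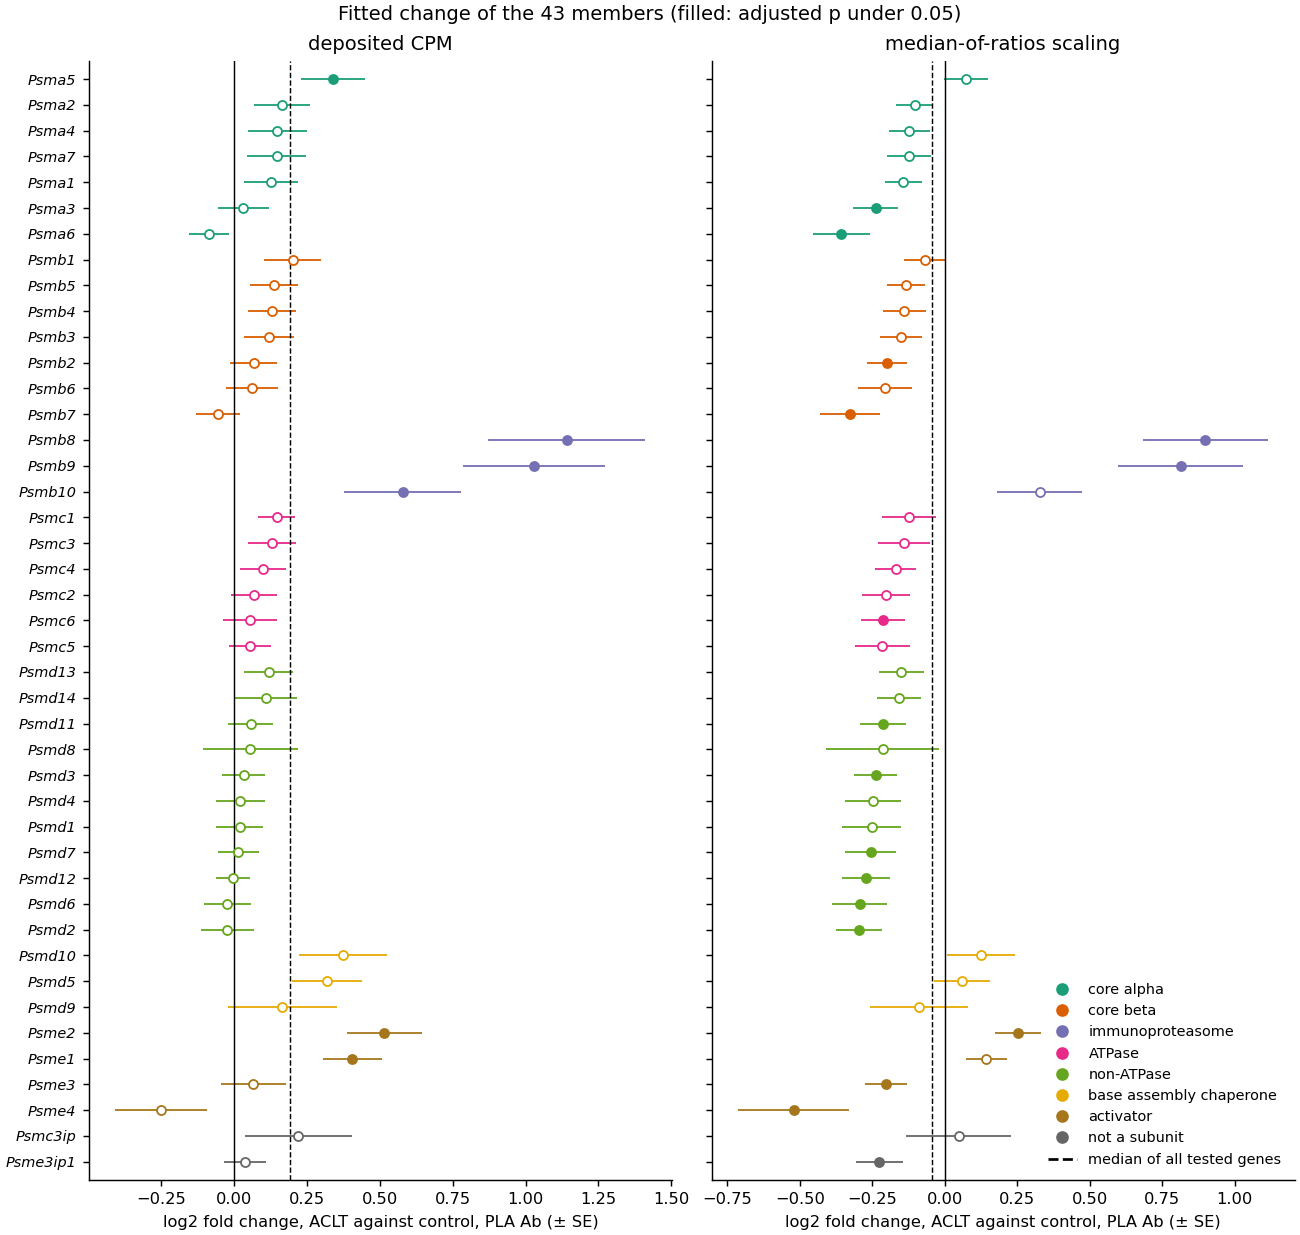
Log2 fold change with its SE of each of the 43 genes, PLA Ab ACLT against PLA Ab control, on deposited CPM and after median-of-ratios scaling, with filled points for genes called at adjusted p under 0.05 and dashed lines at the median of all genes (0.193 and −0.044). On deposited CPM 26 of 31 constitutive subunits lie above 0 and after rescaling 1 does, while Psmb8, Psmb9 and Psme2 are called higher on both.

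Libraries 4 and 5 of PLA Ab ACLT carried much of the difference. Without both, limma called 0 of 43 members in either direction, against 6.83% of all genes called higher and 0.143% lower, and 5 were at an unadjusted p under 0.05, where 20% of all genes were. The log2 fold change of Psmb8 was then 0.63 (adjusted p = 0.0589), that of Psmb9 0.71 (adjusted p = 0.0854), that of Psmb10 0.21 (adjusted p = 0.493), that of Psme1 0.30 (adjusted p = 0.103), that of Psme2 0.25 (adjusted p = 0.0936) and that of Psma5 0.15 (adjusted p = 0.368). With median-of-ratios scaling as well, 0 of 43 were called, against 6.2% of all genes higher and 1.98% lower, 12 were at an unadjusted p under 0.05, where 23.3% of all genes were, and Psmb8 and Psmb9 stood at 0.53 and 0.63. When any 1 of the 20 libraries was left out, Psmb8, Psmb9, Psme1 and Psme2 stayed called in 20 of 20 fits. Psmb10 lost its call in 7 fits (without PLA Ab control 1, 2, 3 or 4 or PLA Ab ACLT 2, 4 or 5, adjusted p up to 0.130) and Psma5 in 4 (without PLA Ab control 4 or 5 or PLA Ab ACLT 4 or 5). The count of members called higher was 10 without PLA Ab ACLT library 1, where 39.8% of all genes were called higher. It was 4 to 8 without any other, where 15.4% to 35.2% of all genes were.

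A ratio within a library does not depend on its scaling, so each immunoproteasome gene was divided by the gene of the subunit it replaces, per kb. These ratios are descriptions, with no test. The level of Psmb8 was 1.82% ± 0.188 (SD, n = 5) of that of Psmb5 in PLA Ab control, 4.58% ± 2.48 in PLA Ab ACLT, 2.19% ± 0.669 in GDF8 Ab control and 2.80% ± 0.791 in GDF8 Ab ACLT. The PLA Ab ACLT libraries (2.44% to 8.71%) lay above all PLA Ab controls (1.62% to 2.06%), and without libraries 4 and 5 their mean was 3.07% ± 0.595 (SD, n = 3). Psmb9 stood at 1.03% ± 0.383, 2.62% ± 1.02, 1.42% ± 0.621 and 1.51% ± 0.522 of Psmb6 in the same order of groups. PLA Ab control (0.714% to 1.68%) and ACLT (1.67% to 4.31%) overlapped, and without libraries 4 and 5 the ACLT mean was 2.02% ± 0.334 (SD, n = 3). For Psmb10 over Psmb7 the values were 3.08% ± 0.431, 5.36% ± 2.53, 3.60% ± 0.562 and 3.91% ± 0.636. There too PLA Ab control (2.52% to 3.53%) and ACLT (3.18% to 9.39%) overlapped, and the ACLT mean without libraries 4 and 5 was 4.02% ± 1.42 (SD, n = 3). The highest ratio in any library was 9.39%, so the constitutive catalytic genes were expressed at the higher level per kb in every library.

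**Figure D4:**
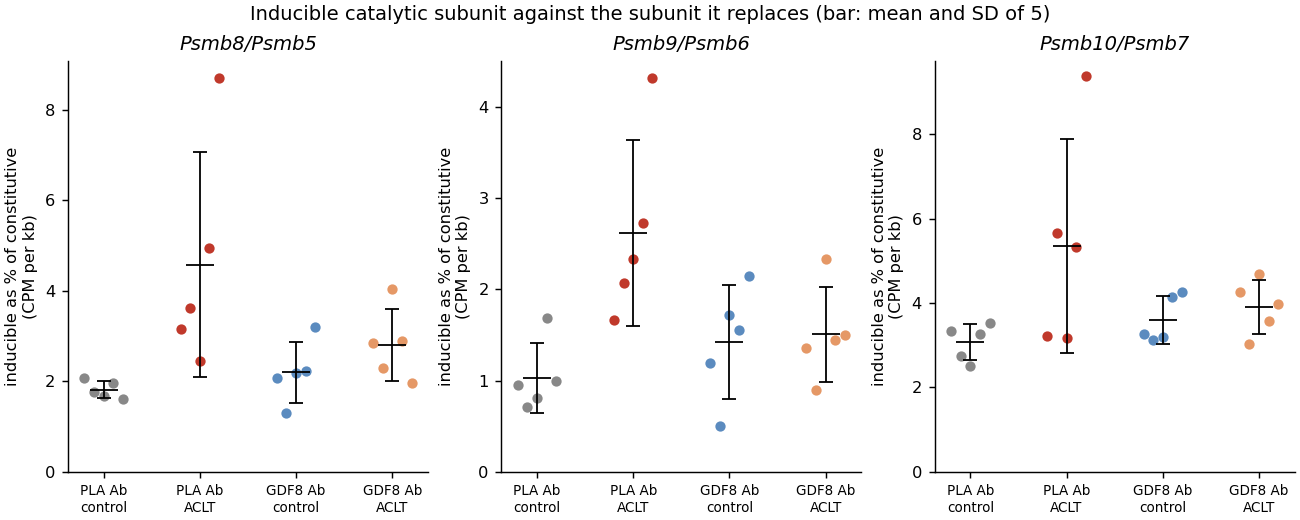
Level of Psmb8, Psmb9 and Psmb10, each as a percent of the gene of the subunit it replaces (Psmb5, Psmb6 and Psmb7), both in CPM per kb, in each library with the group mean and SD. The mean of Psmb8 over Psmb5 is 1.82% in PLA Ab control and 4.58% in PLA Ab ACLT, and a within-library ratio does not change with the scaling of the library.

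Genes around the proteasome were read from lists drawn up with earlier results of these data known, each given by its counts and median, beside the 28% of all genes called higher and their median of 0.193. Of 9 antigen processing partners of the immunoproteasome 8 were called higher with a median log2 fold change of 1.05, among them H2-D1, an MHC class I heavy chain, at 1.31, B2m, its light chain, at 1.29, Tap1, which transports peptides into the endoplasmic reticulum, at 1.40, and the oxidoreductase Pdia3 at 1.67. Of 8 transcription factors of proteasome genes and their processing genes 5 were higher (median 0.56), among them Nlrc5, the MHC class I transactivator, at 1.13 (adjusted p = 0.0101), Irf1 at 0.74 (adjusted p = 0.0163), Stat3 at 0.70 and Nfe2l2 at 0.52 (adjusted p = 0.0327). Nfe2l1, which encodes the factor that restores constitutive subunits after proteasome inhibition, was not called in deposited CPM (−0.14, adjusted p = 0.286). Among 5 chaperones of core assembly 2 were higher (median 0.21), Psmg4 and Pomp, the maturation factor, which was at 0.24 (adjusted p = 0.0467), but 0 of 5 after median-of-ratios scaling. Of 3 tested assembly chaperones and inhibitors of the regulatory particle outside the name pattern 0 were called (median −0.05), the inhibitor Psmf1 being at −0.05 (adjusted p = 0.804). Of 13 proteasome-bound subunits, deubiquitinases and shuttles 0 were called (median 0.10), with the deubiquitinase Usp14 at 0.17 (adjusted p = 0.160) and the ubiquitin receptor Adrm1 at 0.01 (adjusted p = 0.945). Of 6 ubiquitin and ubiquitin-activating genes 1 was higher, Rps27a (median 0.19), of 8 genes of the VCP segregase 1, Faf2 (median 0.07), and of 9 muscle ubiquitin ligases 1, Nedd4, at 0.41 (median 0.17), all 3 shares being below that of all genes. After median-of-ratios scaling, where 18.6% of all genes were called higher and 15.9% lower, the higher calls were 7 of 9 for antigen processing, with 0 lower, and 3 of 8 for the transcription factors, with 3 lower. The lower calls there were 2 of 3, 4 of 13, 2 of 8 and 3 of 9 in the regulatory particle, proteasome-bound, VCP and ligase lists, with 0 higher. Without PLA Ab ACLT libraries 4 and 5, where 6.83% of all genes were called higher, the antigen processing list had 4 of 9 called higher (median 0.60). The 7 other lists of this paragraph, the transcription factors among them, had 0 called.

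Markers of macrophages and fibroblasts were higher in PLA Ab ACLT, as were the immunoproteasome genes. All 9 macrophage and monocyte markers listed (Ptprc, Cd68, Adgre1, Lyz2, Csf1r, Itgam, Cd14, C1qa and Fcgr1) were called higher in PLA Ab ACLT, with a median log2 fold change of 2.99 and of 2.73 after median-of-ratios scaling. Without PLA Ab ACLT libraries 4 and 5, 9 of 9 were still called higher, with a median of 2.05. Their summed level was 26.8 to 75.5 CPM in PLA Ab control, 231, 480, 290, 1080 and 1659 CPM in PLA Ab ACLT, 38.0 to 62.1 CPM in GDF8 Ab control and 62.4 to 272 CPM in GDF8 Ab ACLT. The immunoproteasome genes summed to 10.1 to 13.7 CPM in PLA Ab control, 16.8, 22.6, 15.9, 31.7 and 50.1 CPM in PLA Ab ACLT, 10.8 to 18.0 CPM in GDF8 Ab control and 12.9 to 21.0 CPM in GDF8 Ab ACLT. The same PLA Ab ACLT libraries, 5, 4 and 2, led both sums in the same order, and libraries 1 and 3 changed places. In GDF8 Ab ACLT library 3 led both sums, at 272 CPM of markers and 21.0 CPM of immunoproteasome genes. Library 2 of that group had 195 CPM of markers but the lowest immunoproteasome sum, 12.9 CPM. Fibroblast markers (4 of 5 called higher, median 1.40, and 2 of 5, median 0.78, without libraries 4 and 5) summed to 253 to 536 CPM in PLA Ab control and 782 to 12691 CPM in PLA Ab ACLT. Muscle fibre markers (0 of 6 called, median −0.21) ran from 91977 to 126227 CPM and from 78246 to 137831 CPM, and endothelial markers (0 of 5 called, median 0.22) from 113 to 180 and from 143 to 187 CPM. Lymphocyte markers were near 0. Of 10 listed, 4 were in the table and 1 was tested without a call (log2 fold change −0.01), they summed to 1.69 to 6.42 and 2.68 to 6.78 CPM, and Cd3g was at 0 in at least 1 library of every group, as was Cd4 in PLA Ab control. The part of these cells in the rise of the immunoproteasome genes was not tested. In bulk muscle, a change in the number of cells of a type and a change in RNA per cell cannot be told apart.

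**Figure D5:**
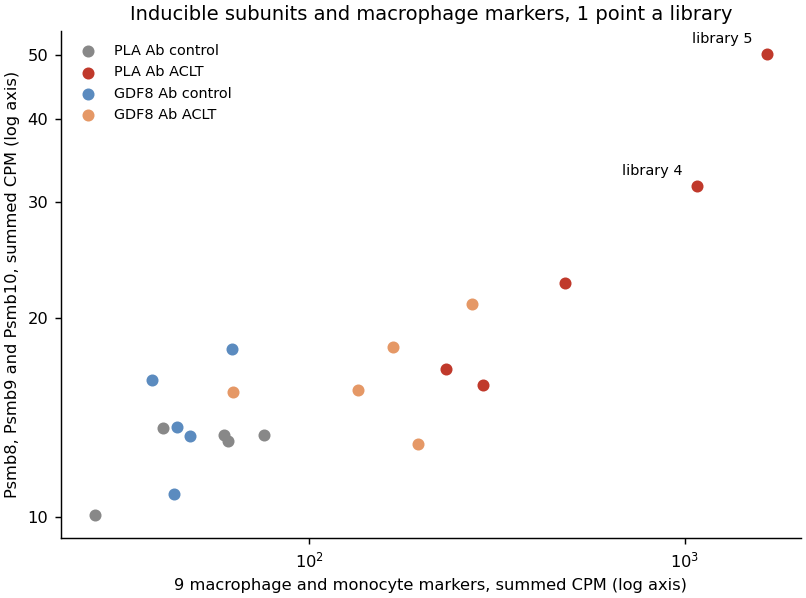
Summed CPM of the 3 immunoproteasome genes against summed CPM of 9 macrophage and monocyte markers, both on log axes, with 1 point per library coloured by group. PLA Ab ACLT libraries 4 and 5 lie at the top right (31.7 and 50.1 against 1080 and 1659 CPM). The control libraries lie at the left, as does GDF8 Ab ACLT library 4 (62.4 CPM of markers). On the immunoproteasome axis control and ACLT libraries overlap under GDF8 Ab, with 10.8 to 18.0 CPM in GDF8 Ab control and 12.9 to 21.0 CPM in GDF8 Ab ACLT. Under PLA Ab they do not, with 10.1 to 13.7 CPM in PLA Ab control and 15.9 to 50.1 CPM in PLA Ab ACLT.

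Under GDF8 Ab, ACLT against control limb, the proteasome genes showed no called change. limma called 0 of 43 members, against 0.0222% of all genes higher and 0% lower, and 0 were at an unadjusted p under 0.05, where 2.56% of all genes were. Psmb8 had a mean of 3.97 ± 1.10 CPM (SD, n = 5) in the control limb and 5.33 ± 1.34 CPM (SD, n = 5) in the ACLT limb, and its log2 fold change was 0.35 ± 0.27 (SE, adjusted p = 1.00). The groups overlapped for all 43 members, where 1.75% of all genes had every ACLT value higher and 0.0518% every value lower. Psmb9, Psmb10, Psme1, Psme2 and Psma5 had log2 fold changes of 0.14, 0.09, −0.01, 0.11 and 0.08. The median over the 31 constitutive subunits was 0.01. Of the 13 lists 0 had a called gene, and the median of the 9 macrophage markers was 1.14. A missed threshold does not show that these genes were unaffected.

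The antibodies were next compared in the injured limb. Between GDF8 Ab and PLA Ab the median log2 fold change of the 31 constitutive subunits was −0.11 in deposited CPM and 0.12 after median-of-ratios scaling, where those of all genes were −0.198 and 0.013. A single gene, Psmc3, an ATPase of the regulatory particle, was called lower, and 0 higher, against 17.6% of all genes lower and 0.733% higher. A total of 18 of 43 members were at an unadjusted p under 0.05, where 38% of all genes were. That count was near the background. Psmc3 read 164, 175, 155, 145 and 162 CPM in PLA Ab control libraries 1 to 5, 172, 161, 157, 201 and 187 CPM in PLA Ab ACLT, 143, 161, 138, 152 and 146 CPM in GDF8 Ab control, and 133, 169, 133, 153 and 152 CPM in GDF8 Ab ACLT. Its log2 fold change was −0.24 ± 0.08 (SE, adjusted p = 0.0461), and with median-of-ratios scaling it was −0.01, adjusted p = 0.963, where 0 of 43 members were called against 4.56% of all genes higher and 8.8% lower. Psmc3 kept its call in 6 of 20 fits that left out 1 library, with adjusted p from 0.0191 to 0.154. Leaving out library 1, 3 or 2 of PLA Ab ACLT raised the number of members called lower to 17, 11 and 5, where 37.8%, 30.9% and 12.6% of all genes were called lower. Leaving out library 2 of PLA Ab control raised it to 3, where 15.6% of all genes were. It was 0 when library 4 or 5 of PLA Ab ACLT was left out, where 0.0524% and 2.29% of all genes were. Immunoproteasome genes were below PLA Ab without reaching the threshold, Psmb8 at −0.68 ± 0.27 (SE, adjusted p = 0.0783), Psmb9 at −0.65 ± 0.24 (SE, adjusted p = 0.0640) and Psmb10 at −0.38 ± 0.20 (SE, adjusted p = 0.171). Psme2 was at −0.35 ± 0.13 (SE, adjusted p = 0.0595), Psma5 at −0.28 ± 0.11 (SE, adjusted p = 0.0717) and Psme1 at −0.17 ± 0.10 (SE, adjusted p = 0.224), which turned to 0.06 after median-of-ratios scaling. The genes of the replaced subunits, Psmb5 at −0.16 ± 0.08 (SE, adjusted p = 0.161), Psmb6 at −0.05 ± 0.09 (SE, adjusted p = 0.685) and Psmb7 at −0.06 ± 0.08 (SE, adjusted p = 0.593), and the activator gene Psme3 at −0.13 ± 0.11 (SE, adjusted p = 0.399), were not called, and all 4 values turned above 0 after median-of-ratios scaling. Psme4 was at 0.05 ± 0.16 (SE, adjusted p = 0.827). Without PLA Ab ACLT libraries 4 and 5 the differences were smaller, at −0.17 for Psmb8, −0.34 for Psmb9, −0.01 for Psmb10, −0.09 for Psme2, −0.10 for Psma5, −0.06 for Psme1 and −0.15 for Psmc3. Then 0 of 43 members were called, against 0% of all genes higher and 0.272% lower, and 0 were at an unadjusted p under 0.05, where 10.5% of all genes were. With median-of-ratios scaling as well, Psmb8 was at −0.10, Psmb9 at −0.27, Psmb10 at 0.06 and Psme2 at −0.02. In this comparison no member separated the groups, against 4.21% of all genes with every GDF8 Ab value lower and 0.304% with every value higher. Of the 9 antigen processing genes 7, and of the 9 macrophage markers 8, were called lower, with medians of −0.73 and −1.85 (2 and 7 called, medians −0.49 and −1.63, after median-of-ratios scaling), as were 2 of 5 fibroblast markers, Stat3, the proteasome-associated Zfand2a and the ubiquitin-activating enzyme gene Uba6. Without PLA Ab ACLT libraries 4 and 5, 0 of the antigen processing genes (median −0.28) and 1 of the macrophage markers (median −0.91) were called lower, where 0.272% of all genes were. No gene of the other lists was called then. The lists of core assembly chaperones, assembly chaperones and inhibitors of the regulatory particle, the VCP segregase, muscle ubiquitin ligases, muscle fibre, lymphocyte and endothelial markers had 0 calls. The PLA Ab ACLT libraries serve here and in the first comparison, so the 2 are not independent.

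In the control limb, GDF8 Ab against PLA Ab, limma called 0 of 43 members, against 0% of all genes in either direction, and 5 were at an unadjusted p under 0.05, where 5.93% of all genes were. Psmb8 had a mean of 3.53 ± 0.422 CPM (SD, n = 5) under PLA Ab and 3.97 ± 1.10 CPM (SD, n = 5) under GDF8 Ab. Psme1 was among the 5, with a mean of 21.9 ± 1.19 CPM (SD, n = 5) and 26.2 ± 2.14 CPM (SD, n = 5), and a log2 difference of 0.25 (adjusted p = 0.712). Every GDF8 Ab control library of Psme1 was above every PLA Ab control library, by 23.3 CPM against 22.9 CPM at the nearest. The groups were apart in the other direction for Psmb4, a core beta subunit, Psmd2, a scaffold of the regulatory particle base, and Psme3ip1. These 1 and 3 of 43 members compare with 0.304% of all genes with every GDF8 Ab value higher and 1.89% with every value lower. The injury responses under the 2 antibodies were compared directly by the interaction, and 0 of 43 members were called, against 0% of all genes, and 3 were at an unadjusted p under 0.05, where 16% of all genes were. The interaction was −0.79 ± 0.38 (SE, adjusted p = 0.316) for Psmb8, −0.89 ± 0.34 (SE, adjusted p = 0.260) for Psmb9, −0.49 ± 0.29 (SE, adjusted p = 0.381) for Psmb10, −0.41 ± 0.14 (SE, adjusted p = 0.258) for Psme1 and −0.40 ± 0.18 (SE, adjusted p = 0.291) for Psme2, all in log2 units. Without PLA Ab ACLT libraries 4 and 5 the values were −0.28 for Psmb8, −0.57 for Psmb9, −0.12 for Psmb10, −0.30 for Psme1 and −0.14 for Psme2. With median-of-ratios scaling as well they were −0.24, −0.54, −0.09, −0.27 and −0.11. Without PLA Ab ACLT library 1 the count was 1, Psme1, called lower (adjusted p = 0.0397), where 0.0595% of all genes were called higher and 7.3% lower. The calls under PLA Ab and their absence under GDF8 Ab were thus not shown to differ by this test. All 13 lists had 0 calls in both comparisons.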

How the data were processed

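RNA from quadriceps of 20 limbs was sequenced, and the authors aligned reads with STAR 2.7.3a and normalized them in Partek. The deposited values are CPM, made by the authors and adding up to 1e+06 in each library, for 17415 genes. The submitters' processing notes for the authors' files also name DESeq2, and both mm10 and mm39. The deposited coordinates are not those of GRCm38, so they are printed without a build, apart from the RefSeq promoters. Libraries were grouped by GEO's labels. Each library's depth was read from the smallest steps between its values. Only 23.3% to 75.0% of values lay within 0.02 of a whole read, so no count test was run.

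Tests used limma (version 3.58.1, run in R 4.3.3) on the log2(CPM + 1) scale, with a mean for each of the 4 groups and a mean-variance trend. All 20 libraries entered, a gene needed 1 CPM or more in 5 or more of them, 5 comparisons were drawn from this fit, and p was Benjamini-Hochberg adjusted over all 13502 genes within each. Fold changes of low genes are understated on this scale. The fit was tested on simulated libraries that were independent and did not differ in scale. That test therefore does not cover shared mice or the scale differences of the real libraries. The members, the 13 gene lists and the subunit classes were chosen with earlier results of these data known. Every member is named by class. Values in every library are given for members called in any comparison, for Psmb5 to Psmb10 and for Psme1 to Psme4. List genes are named if called, up to 4 per list by adjusted p, and otherwise Nfe2l1, Nfe2l2, Psmf1, Pomp, Usp14 and Adrm1 are given. List genes named as called in the ACLT limb comparison of the antibodies follow the same rule. Lengths per kb are those of the principal transcript of GENCODE vM21, and Psme3ip1 had none. Promoters and their build are RefSeq's. Alternatives changed the filter, the pseudocount, the scaling, the trend, the libraries fitted, and a replicate block. Leaving out PLA Ab ACLT libraries 4 and 5 was chosen from earlier results of these data, and doing so together with median-of-ratios scaling was added after seeing the data. Psma8 and Psmb11 were not analysed here. A few genes of the lists are not reported here by name.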

Additional observations from a re-analysis of the deposited data

Results flagged for a closer look

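In 7 of 88 sets of 5 values (12 genes, class sums and ratios, each in 4 groups) the highest or lowest library lay apart from the other 4 by more than 0.71 of the range of the group. Chance flags about 1 in 20 such sets. In PLA Ab control, library 2 stood apart as the highest for Psmb5 (126.1 CPM), for Psmb7 (247 CPM) and for the sum of the core beta subunits (861.1 CPM). In the same group library 3 was low for the sum of the immunoproteasome genes (10.08 CPM), and library 4 was high for Psmb9 over Psmb6 (1.684% per kb). In GDF8 Ab ACLT, library 2 stood apart as the highest for Psmb6 (113.7 CPM) and for the sum of the non-ATPase subunits (1338 CPM).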

How the results depend on the processing

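The 6 calls of ACLT against control under PLA Ab were also 6 with no filter, with a pseudocount of 0.25 and with no mean-variance trend, and 8 with a replicate block, which added Psmd5 and Psmd10 and called 34.7% of all genes higher and 3.07% lower. Of all genes, 26.6%, 27.6% and 27.8% were called higher in the first 3 of these fits, and 1.13%, 1.44% and 1.13% lower. With a filter of 10 CPM, which left 38 of 43 members tested, the count was 3, against 18.5% of all genes called higher and 1.66% lower. Psmb8, Psmb9 and Psmb10 did not pass that filter and were not tested there. The count was 17 (3 higher, 14 lower) with median-of-ratios scaling, against 18.6% of all genes higher and 15.9% lower. It was 1 (Psmb9) with only the groups compared in the fit, against 5.4% of all genes higher and 0.0222% lower. Without PLA Ab ACLT libraries 4 and 5 it was 0 with either scaling, against 6.83% and 6.2% of all genes higher. Leaving out 1 library at a time gave 4 to 10, with 10 without PLA Ab ACLT replicate 1 (39.8% of all genes called higher). The single call between the antibodies in the ACLT limb (Psmc3) was 0 with the 10 CPM filter, with median-of-ratios scaling, with only the groups compared, with no trend and without libraries 4 and 5 with either scaling, and 1 with the replicate block. In the order of these fits, 6.32%, 8.8%, 0%, 16.5%, 0.272%, 0.317% and 16.7% of all genes were called lower. Leaving out 1 library gave 0 to 17, with 17 without PLA Ab ACLT replicate 1, 11 without replicate 3, 5 without replicate 2 and 3 without PLA Ab control replicate 2, where 37.8%, 30.9%, 12.6% and 15.6% of all genes were called lower. The interaction gave 0 to 1 when 1 library was left out (Psme1, without PLA Ab ACLT replicate 1, where 7.3% of all genes were called lower), and the other comparisons gave 0 throughout. The cause was not tested. Same-numbered limbs correlated at r above 0.1 in 8 of 10 pairs (0.0347 to 0.517), and for 13 of 20 libraries the best match was the own number, a hint from the data that numbers may mark mice. They were not taken as pairs, because no label ties a number to a mouse and not every pair was above 0.1.

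Signs that turned were as follows. In ACLT against control under PLA Ab, Psmb5, Psmb6, Psmc3 and Psme3 went to −0.13, −0.21, −0.14 and −0.20 with median-of-ratios scaling and to −0.097, −0.120, −0.084 and −0.230 when libraries 4 and 5 were also left out. Without those libraries alone Psmb6 and Psme3 were at −0.0066 and −0.12, and with 1 library left out Psmb7 ran from −0.10 to 0.0002466 and Psme3 from −0.025 to 0.15. Between the antibodies in the ACLT limb, Psmb5, Psmb6, Psmb7, Psme1 and Psme3 went to 0.079, 0.183, 0.179, 0.065 and 0.105 with median-of-ratios scaling, and Psmb5, Psmb6, Psmb7, Psmb10, Psme1 and Psme3 to 0.040, 0.092, 0.068, 0.058, 0.016 and 0.129 when libraries 4 and 5 were also left out. Without those libraries alone Psmb6 and Psme3 were at 0.015 and 0.053, and with 1 library left out Psme4 ran from −0.031 to 0.17. Under GDF8 Ab, ACLT against control, Psmb9 ran from −0.049 to 0.28 and Psme1 from −0.045 to 0.028. Depth limits Psmb9 most among the members named by value, which went down to 0.913 CPM in GDF8 Ab control library 2, against a floor of 3 reads of 0.124 to 0.192 CPM.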

Other observations

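Psme4, which encodes the PA200 activator, and Psmd8, which encodes a lid subunit of the regulatory particle, were picked after their values were seen, because their levels followed the library number in both limbs. Psmd8 read 199, 142, 178, 124 and 127 CPM in PLA Ab control libraries 1 to 5, 189.6, 116, 174, 159 and 157 CPM in PLA Ab ACLT, 116, 132, 172, 100.4 and 103 CPM in GDF8 Ab control, and 113, 132, 155, 107 and 111 CPM in GDF8 Ab ACLT. In PLA Ab the highest library of each limb was library 1 and the next was library 3, and in GDF8 Ab the highest of each limb was library 3. For Psme4 library 3 was the highest of all 4 groups, at 406, 350.1, 351 and 293 CPM. These are descriptions, with no test.

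Psme2b, which has the name of an activator but fell short of the 1 CPM limit, had a mean of 0.438 ± 0.295 CPM (SD, n = 5) in PLA Ab control, 0.897 ± 0.543 in PLA Ab ACLT, 0.336 ± 0.215 in GDF8 Ab control and 0.676 ± 0.254 in GDF8 Ab ACLT, and was not tested. A gene of this kind can share reads with Psme2, and how the authors' counting split such reads is not given in the sources used here.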
